A study of Homo sapiens with 8 samples.

Results

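Interferon-stimulated genes are the antiviral genes that cells switch on after contact with interferon. A set of 40, given by symbol, was followed here in H1975 and HCC44, cell lines from human lung cancers, after culture with the degrader ACBI1 or with its solvent DMSO. All 40 symbols were found among the 61228 gene names of each count table, and all 40 were among the 21307 genes with enough reads to test over the 8 libraries. They were taken by symbol. RSAD2 and TRIM22 passed the filter on low counts only through H1975, so their values in HCC44 rest on few reads.

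Type I interferons bind the receptor chains IFNAR1 and IFNAR2, whose kinases JAK1 and TYK2 phosphorylate STAT proteins, STAT2 among them. STAT2 works with IRF9 in a complex that binds a short promoter element, the interferon-stimulated response element. The genes it switches on bind viral RNA (the IFIT, OAS and DDX60 proteins), block virus entry, transport or budding (MX1, MX2, BST2), attach the ubiquitin-like protein ISG15 to other proteins, or feed back on the pathway itself (STAT2, IRF9, IRF7, USP18). Tumour cell lines can express such genes in culture with no interferon added.

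The 4 groups were H1975 with DMSO, H1975 with ACBI1, HCC44 with DMSO and HCC44 with ACBI1, and each held 2 libraries. All cells carry the genotype label WT, and the labels name neither an interferon nor an infection. ACBI1 was given for 96 hours at what the labels write as 1 mM, a concentration whose unit is uncertain because it is far above the usual range for degraders. ACBI1 brings the SWI/SNF chromatin remodelling subunits SMARCA2, SMARCA4 and PBRM1 to the VHL ubiquitin ligase, and the study asked how loss of these remodellers bears on the immune features of lung cancer. Each line stands for itself alone, so a difference between the lines is a difference between 2 cultures and not between 2 tumour types. The labels do not say whether replicates came from separate cultures, so p-values measure only the spread between these libraries.

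Reads assigned to genes numbered 62467286 to 70455517 per library. The 9 epithelial markers summed to between 5160 and 5420 CPM (reads per 1000000 reads of the scaled library) in H1975 with DMSO, to between 2350 and 2840 with ACBI1, to between 940 and 980 in HCC44 with DMSO and to between 1200 and 1660 with ACBI1. NKX2-1, a lung lineage marker, had 2 and 1 reads in the 2 groups of HCC44, and SFTPB was under 1 CPM in every group. The higher sum in HCC44 with ACBI1 was mostly KRT7, which went from 423 and 459 to 751 and 1122 CPM. KRT8 went from 228 and 205 to 146 and 157 CPM there, and by value 4 of the 8 tested markers were lower and 4 higher. In H1975 the epithelial sum moved down together with the interferon-stimulated genes, and its part in their change was not tested. Of 10 leukocyte markers, CD3E and MS4A1 had no read in any library, PTPRC had at most 5 reads in a group, and 8 or 9 were under 1 CPM in each group. The summed leukocyte level ran from 1.65 to 3.99 CPM in HCC44 and from 12.1 to 19.4 CPM in H1975, where CSF1R made up most of it. DCN, a fibroblast marker, had no read in any library, but the summed fibroblast level, mostly COL1A1, went from between 74.3 and 92.7 to between 207 and 411 CPM in HCC44 and from between 48.9 and 72 to between 25.5 and 30.5 CPM in H1975. As in any bulk sample, fewer cells expressing a gene and less RNA per cell cannot be told apart.

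With ACBI1, 37 of the 40 genes fell in H1975, none rose, and USP18, HERC5 and ISG20 were not called. A rise was called for 0 of the 40 by DESeq2 too and reached an unadjusted p under 0.05 for 0 of them by edgeR. A gene was called when the adjusted p of edgeR's quasi-likelihood test, Benjamini-Hochberg adjusted over all genes tested, was under 0.05. Changes are given as log2 fold changes ± SE, and a fall or rise by a number is on that scale. Of all tested genes 16.7% were called lower in this comparison and 14.6% higher. The median change of the 40 genes was -1.50 on the log2 scale, which left 35.4% of the DMSO level, beside a median of -0.01 over all tested genes. In HCC44, 15 of the 40 fell, 8 rose and 17 were not called, against 17.4% of all tested genes called lower and 17.5% called higher. The share that fell, 37.5%, was above that of all tested genes, as was that of relatives from outside the interferon response, of which 7 of 14 fell. The share that rose was close to that of all tested genes. The median change in HCC44 was -0.23, which left 85.4% of the DMSO level. The summed level of the 40 genes was 4802.7 and 4712.5 CPM in the DMSO libraries of H1975 and 1715 and 1502.6 CPM in its ACBI1 libraries. In HCC44 it was 1371.2 and 1468 CPM with DMSO and 1071.8 and 1168.3 CPM with ACBI1. By this sum the ACBI1 libraries lay below the DMSO libraries in both lines, and H1975 with ACBI1 came down to about the sum of HCC44 with DMSO. LGALS3BP alone held 35.7% of that HCC44 sum and went from a mean of 507 to 349 CPM with ACBI1. The median level of the 40 genes was not lower in HCC44 with ACBI1, at 14.98 and 15.61 CPM against 14.9 and 14.77 CPM with DMSO. In H1975 with ACBI1 this median was 34.26 and 28.88 CPM.

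**Figure D1:**
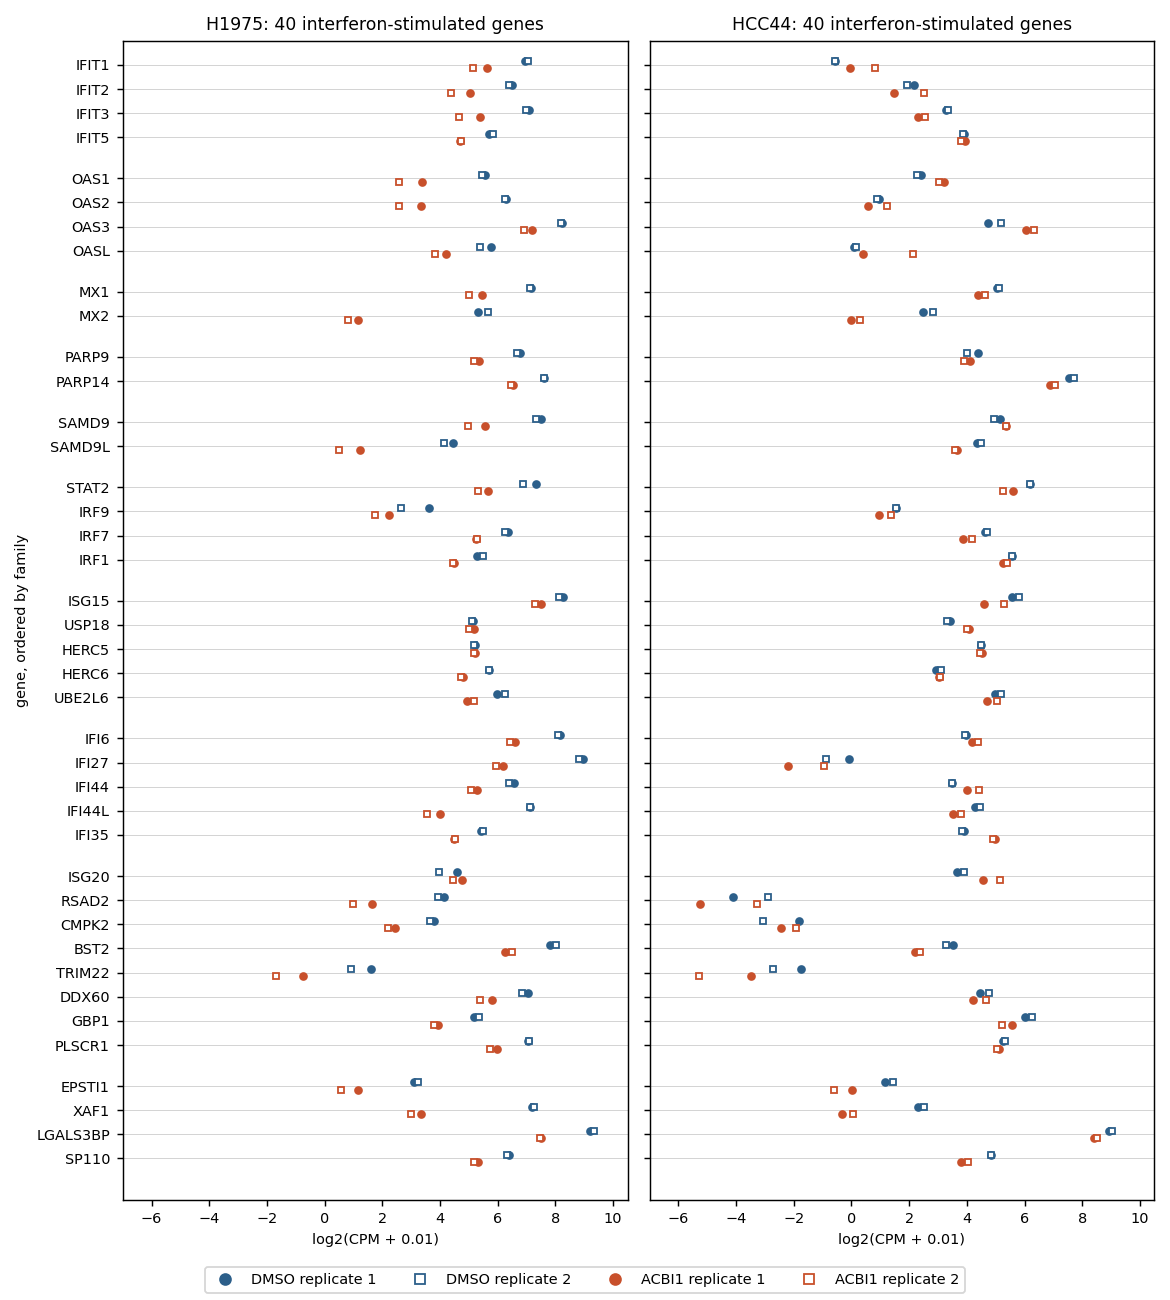
Level of each of the 40 genes in each library, as log2(CPM + 0.01), with 1 panel per line and the genes ordered by family. Circles are replicate 1 and squares replicate 2, blue for DMSO and orange for ACBI1. In H1975 both ACBI1 libraries lie below both DMSO libraries for 37 genes and above for 0, beside 34.2% and 33.1% of all tested genes. In HCC44 they lie below for 20 and above for 10, beside 32.7% and 34.1%.

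The calls fell into 5 patterns. The share of all tested genes in each pattern was not counted, so these counts describe the 40 genes only. In all, 15 genes fell in both lines (IFIT3, MX1, MX2, PARP14, SAMD9L, STAT2, IRF7, ISG15, IFI44L, BST2, GBP1, EPSTI1, XAF1, LGALS3BP and SP110). A further 16 fell in H1975 and were not called in HCC44. Another 6 fell in H1975 and rose in HCC44 (IFIT1, OAS1, OAS3, IFI6, IFI44 and IFI35). USP18 and ISG20 rose in HCC44 and were not called in H1975, and HERC5 was called in neither line. The difference between the lines' changes, tested as an interaction, was called for 29 genes, where 18.6% of all tested genes were called (8.4% lower and 10.2% higher in HCC44). In each of the 29 the change in HCC44 was the more positive, and a more negative one was called for 0 genes by edgeR and by DESeq2 and reached an unadjusted p under 0.05 for 0 genes. Its median over the 40 genes was 1.21. Of these 29 calls, 18 held in every alternative tried, and 11 were lost in at least 1.

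Leaving out a library leaves 1 in its group and makes a call harder to reach, so a call can be lost where replicates are close. The count of genes that rose in HCC44 depended on which libraries were kept. It was 8 with all libraries, 4 without DMSO replicate 1, and 5 when either DMSO replicate 2 or ACBI1 replicate 2 was left out. OAS3, IFI44, IFI35 and USP18 kept the call in every alternative, while IFIT1, OAS1, IFI6 and ISG20 lost it in some. Of the 15 that fell in HCC44, IFIT3, MX1, SAMD9L, STAT2 and ISG15 lost the call in some alternative. In H1975, 33 of the 37 calls held throughout. The others were IFIT2 (lost without DMSO replicate 1), IRF9 (lost without DMSO replicate 1 or ACBI1 replicate 2), and OASL and ISG15 (lost when any 1 of the 4 H1975 libraries was left out). IRF9, OASL and ISG15 also lost the call at a threshold of 0.01, and OASL lost it with no filter.

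**Figure D2:**
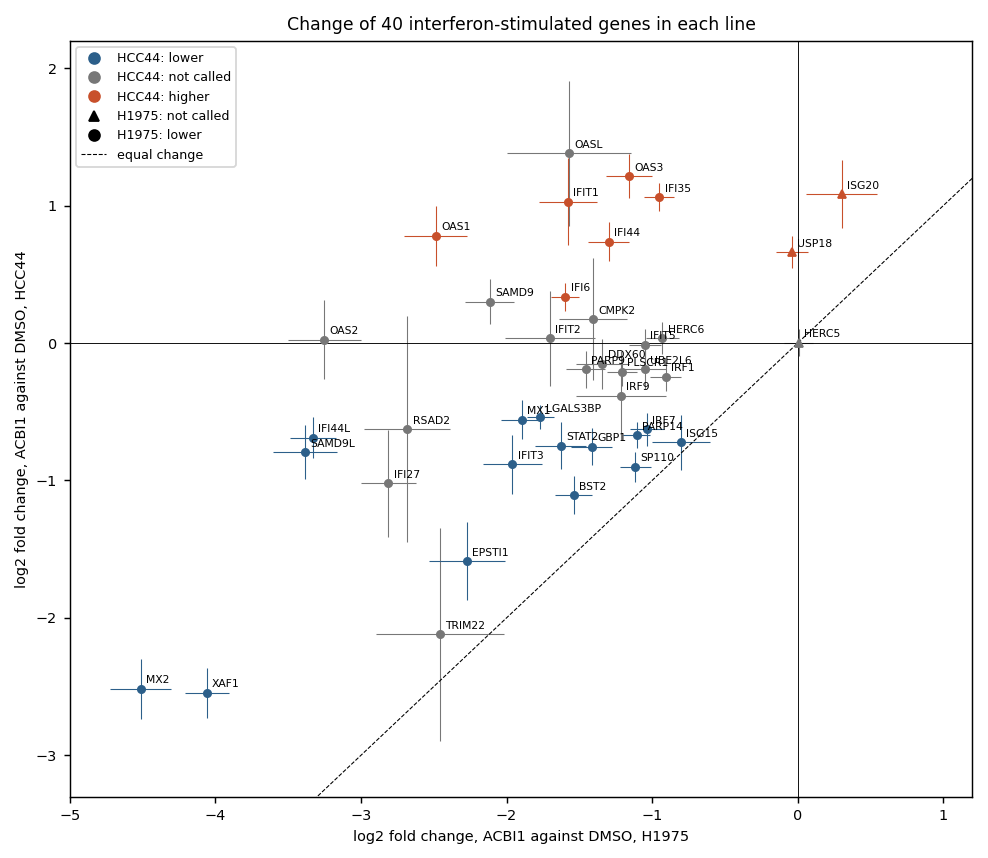
Log2 fold change with ACBI1 in H1975 (horizontal axis) and in HCC44 (vertical axis) for each of the 40 genes, with standard errors as bars. Colour gives the call in HCC44, triangles mark the 3 genes not called in H1975, and the dashed line marks equal change. HERC5, ISG15 and SP110 lie nearest the line, and every gene but HERC5 lies above it.

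The promoters were read to see what the members share outside the counts. RefSeq windows of 300 bases, from 250 before to 50 after the start of the gene in build GRCh38.p14, were found for 33 of the 40 genes. None was found for IFIT2, OAS2, OASL, MX2, IRF7, USP18 and TRIM22. The core letters of the response element, GAAANNGAAA on either strand, occurred in 20 of the 33 windows (60.6%) and in 3.65% of 27305 promoter windows of the same length. The letters of the gamma-interferon activation site, TTCNNNGAA, which are the same on both strands, occurred in 10 of the 33 (30.3%) and in 7.88% of all windows, and both letter patterns can overlap. The 7 windows shown were picked for contrasts in the counts. IFIT1, IFI6 and IFI44 fell in H1975 and rose in HCC44, IFI44L and BST2 fell in both, HERC5 was called in neither, and XAF1, which fell in both, has no match. Each is given as the 200 bases before the start, in the direction of transcription, with every match to the response element in capitals.
IFIT1 (chr10:89392423-89392622, plus strand): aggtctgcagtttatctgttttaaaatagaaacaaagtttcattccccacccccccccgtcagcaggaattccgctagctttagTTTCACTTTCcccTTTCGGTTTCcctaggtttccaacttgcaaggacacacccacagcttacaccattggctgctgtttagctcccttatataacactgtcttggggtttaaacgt
IFI6 (chr1:27672193-27672392, minus strand): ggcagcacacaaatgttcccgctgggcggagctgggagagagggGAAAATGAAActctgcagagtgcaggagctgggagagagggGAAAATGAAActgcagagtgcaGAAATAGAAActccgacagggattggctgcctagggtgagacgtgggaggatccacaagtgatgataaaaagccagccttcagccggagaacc
IFI44 (chr1:78649589-78649788, plus strand): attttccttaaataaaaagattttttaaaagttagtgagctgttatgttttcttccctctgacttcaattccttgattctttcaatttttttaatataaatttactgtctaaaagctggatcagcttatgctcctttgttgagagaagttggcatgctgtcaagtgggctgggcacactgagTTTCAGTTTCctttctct
IFI44L (chr1:78620248-78620447, plus strand): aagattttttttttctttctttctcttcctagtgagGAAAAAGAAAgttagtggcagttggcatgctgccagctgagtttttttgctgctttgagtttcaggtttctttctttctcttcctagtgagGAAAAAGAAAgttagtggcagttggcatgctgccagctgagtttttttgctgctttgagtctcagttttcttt
BST2 (chr19:17405631-17405830, minus strand): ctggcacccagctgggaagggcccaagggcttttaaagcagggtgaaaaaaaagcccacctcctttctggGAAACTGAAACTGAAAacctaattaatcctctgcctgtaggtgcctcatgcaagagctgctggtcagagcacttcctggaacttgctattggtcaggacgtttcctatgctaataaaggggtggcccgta
HERC5 (chr4:88456919-88457118, plus strand): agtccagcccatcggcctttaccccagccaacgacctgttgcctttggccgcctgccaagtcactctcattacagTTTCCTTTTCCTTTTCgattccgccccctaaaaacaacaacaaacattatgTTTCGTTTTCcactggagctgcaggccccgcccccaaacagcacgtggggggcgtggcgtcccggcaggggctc
XAF1 (chr17:6755846-6756045, plus strand): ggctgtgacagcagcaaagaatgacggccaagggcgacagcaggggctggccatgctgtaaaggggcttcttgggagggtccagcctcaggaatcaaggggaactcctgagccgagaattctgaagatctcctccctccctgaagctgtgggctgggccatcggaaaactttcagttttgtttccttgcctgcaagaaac
HERC5, with 3 matches beginning 125, 119 and 74 bases before its start, carried as many as IFI6, whose matches begin 156, 115 and 93 bases before it. IFIT1 and IFI27 each have 2 matches whose starts lie 13 bases apart. Among the 20 genes with a match, 18 fell in H1975 with a median change of -1.48, and in HCC44 9 fell, 5 rose and 6 were not called. Among the 13 windows without a match, all 13 genes fell in H1975 with a median change of -1.41, and in HCC44 4 fell, 2 rose and 7 were not called. Genes with and without these letters thus had close medians in H1975. A match is only a match of letters, and binding was not measured.

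The IFIT proteins bind viral RNA ends and block its translation. All 4 members fell in H1975, and in HCC44 IFIT3 fell, IFIT1 rose, and IFIT2 and IFIT5 were not called. IFIT1 stood at 123 and 132 CPM in the DMSO libraries of H1975, at 49.5 and 35.6 CPM with ACBI1, at 0.668 and 0.658 CPM in HCC44 with DMSO and at 0.960 and 1.75 CPM in HCC44 with ACBI1. Groups did not overlap in either line, but the 2 ACBI1 libraries of HCC44 differed by nearly as much as the groups. Its log2 fold change was -1.58 ± 0.20 (SE, adjusted p = 0.000501) in H1975 and 1.03 ± 0.32 (adjusted p = 0.0319) in HCC44. Between the lines the changes differed by 2.61 ± 0.37 (adjusted p = 0.00197). IFIT3, its near neighbour, went from 136 and 125 to 41.7 and 25.4 CPM in H1975 and from 9.68 and 10.1 to 4.88 and 5.85 CPM in HCC44. It fell in both lines with separate groups, by 1.96 ± 0.20 and by 0.88 ± 0.22 on the log2 scale. IFIT2, IFIT3, IFIT1 and IFIT5 lie in this order on the plus strand of chromosome 10 (GRCh38, GENCODE 29), with 51574 bases between IFIT3 and IFIT1. IFIT5 had a change of -1.05 ± 0.11 in H1975 and -0.01 in HCC44, with a 95% interval of -0.26 to 0.23. IFIT2 changed by -1.70 ± 0.31 in H1975, and its value in HCC44 was 0.03 with an interval of -0.77 to 0.83. Of the annotated exon bases of IFIT2, 10.3% are shared with other genes, so its reads are less certain.

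The OAS enzymes make the second messenger that activates the RNA-degrading enzyme RNase L, except OASL, which lacks this activity and acts through RNA sensing. All 4 fell in H1975, and in HCC44 OAS1 and OAS3 rose and OAS2 and OASL were not called. OAS3 went from 296 and 295 to 145 and 119 CPM in H1975 and from 26.3 and 36.4 to 65.5 and 79.9 CPM in HCC44. The groups were apart in both lines and moved in opposite directions, by -1.16 ± 0.16 (adjusted p = 0.000637) and 1.21 ± 0.16 (adjusted p = 0.000363). OAS1 went from 47.5 and 43.9 to 10.3 and 6.01 CPM in H1975 and from 5.36 and 4.78 to 9.17 and 8.24 CPM in HCC44. The 2 lines therefore differed in OAS1 with DMSO, at a log2 difference of -3.17 ± 0.22, and were at nearly the same level with ACBI1, at 0.10 ± 0.21 (adjusted p = 0.706). OAS2, the gene after OAS3 on chromosome 12, went from 77.8 and 75.7 to 10.1 and 5.97 CPM in H1975, while its HCC44 values of 1.94 and 1.82 CPM with DMSO lay between 1.49 and 2.33 CPM with ACBI1. Its fall of 3.25 ± 0.25 in H1975 beside 0.02 ± 0.29 in HCC44 gave the largest difference between the lines among the 40 genes, 3.28 ± 0.38 (adjusted p = 0.000754). OASL stood at 1.07 and 1.11 CPM with DMSO and at 1.31 and 4.36 CPM with ACBI1 in HCC44, a change of 1.38 with an interval of 0.13 to 2.63 and an adjusted p of 0.0846. The high library of that group was replicate 2.

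MX1 and MX2 are dynamin-like proteins that trap viral nucleoproteins and capsids, and both fell in both lines. MX2 had the deepest fall of the 40 genes in H1975, from 39.9 and 50.8 to 2.22 and 1.74 CPM, a log2 fold change of -4.51 ± 0.21 (adjusted p = 2.54e-06) that left 4.37% of its DMSO level. In HCC44 it went from 5.50 and 7.04 to 0.976 and 1.21 CPM, at -2.52 ± 0.22 (adjusted p = 1.77e-05). Both groups were far apart in both lines. MX1, whose gene starts 10913 bases after the end of MX2 on chromosome 21, went from 142 and 140 to 43.7 and 32.2 CPM in H1975 and from 33.0 and 34.5 to 20.9 and 25.02 CPM in HCC44. Its changes, -1.90 ± 0.14 and -0.56 ± 0.14, were smaller than those of MX2 in each line. The HCC44 call of MX1 was lost without DMSO replicate 2 and without ACBI1 replicate 1.

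PARP9 and PARP14 are macrodomain ADP-ribosyltransferases with roles in antiviral defence, and both fell in H1975. PARP14 had almost the same level in the DMSO libraries of the 2 lines, 195 and 194 CPM in H1975 and 185 and 209 CPM in HCC44, and stood at 91.7 and 88.9 and at 117 and 132 CPM with ACBI1. It fell by 1.11 ± 0.10 in H1975 and by 0.67 ± 0.09 in HCC44, and the difference of 0.44 ± 0.13 (adjusted p = 0.0431) was lost in 10 alternatives. PARP9 fell by 1.46 ± 0.13 in H1975, from 108 and 103 to 41.1 and 35.7 CPM. In HCC44 its DMSO values of 20.7 and 16.2 CPM overlapped the ACBI1 values of 17.2 and 15.0 CPM.

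SAMD9 and SAMD9L are paralogues that restrict poxviruses and cell growth, and they lie 12031 bases apart on the minus strand of chromosome 7. SAMD9L stood at 21.7 and 17.6 CPM in H1975 and at 20.4 and 22.5 CPM in HCC44 with DMSO, so its groups overlapped between the lines. With ACBI1 it was at 2.34 and 1.41 CPM in H1975 and at 12.7 and 12.0 CPM in HCC44. It fell in both lines, by 3.39 ± 0.22 and by 0.79 ± 0.19, and with ACBI1 HCC44 was higher by 2.71 ± 0.22 on the log2 scale (adjusted p = 1.05e-06). SAMD9 showed the reverse. It was lower in HCC44 with DMSO, at 35.6 and 30.9 against 180 and 159 CPM, and the lines were at 41.3 and 40.5 CPM in HCC44 and 46.8 and 31.4 CPM in H1975 with ACBI1. SAMD9 fell by 2.12 ± 0.17 in H1975, and its change in HCC44 was 0.30 with an interval of -0.07 to 0.67 and an adjusted p of 0.191.

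STAT2, IRF9, IRF7 and IRF1 are the transcription factors of the set, and all 4 fell in H1975. STAT2, an activating part of the complex, went from 160 and 119 to 50.6 and 39.5 CPM in H1975 and from 72.3 and 73.7 to 48.8 and 38.1 CPM in HCC44. It fell by 1.63 ± 0.17 and by 0.75 ± 0.17, and the 2 lines were close with ACBI1 (log2 difference -0.05 ± 0.17, adjusted p = 0.809). IRF7, which drives interferon genes, fell in both lines, by 1.04 ± 0.12 and 0.63 ± 0.12. IRF1, which also acts in the response to interferon gamma, fell by 0.91 ± 0.11 in H1975, and its HCC44 value of -0.24 had an interval of -0.47 to -0.02 and an adjusted p of 0.092. IRF9, the DNA-binding part of the complex, stood at 12.3 and 6.23 CPM with DMSO and at 4.64 and 3.34 CPM with ACBI1 in H1975, a change of -1.21 ± 0.31 (adjusted p = 0.013) over DMSO libraries that were far apart. Of its exon bases 48.4%, or 1838 bases, are shared with an annotated gene on the same strand, AL136295.5, so the reads of IRF9 are uncertain. The principal transcript of IRF9 has as many bases, 1838, and whether they are the same bases was not checked. IRF1 shares 22% of its exon bases with genes on the opposite strand.

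The ISG15 system holds the ubiquitin-like protein ISG15, its conjugating enzyme UBE2L6, the ligases HERC5 and HERC6, and the protease USP18, which removes ISG15 and damps receptor signalling. Its median change in H1975, -0.80, was the smallest of the families, and there ISG15, HERC6 and UBE2L6 fell and HERC5 and USP18 were not called. ISG15 fell by close amounts in the 2 lines, from 310 and 280 to 180 and 158 CPM in H1975 (-0.80 ± 0.20, adjusted p = 0.0166) and from 47.5 and 56.1 to 23.9 and 38.8 CPM in HCC44 (-0.72 ± 0.20, adjusted p = 0.0243). The difference of 0.08 ± 0.28 between them was not called. HERC5 was at 36.8 and 35.8 CPM with DMSO and at 36.9 and 36.0 CPM with ACBI1 in H1975, and at 22.4 and 22.7 and at 23.2 and 22.1 CPM in HCC44. Its groups overlapped within each line, with changes of 0.01 and 0.00 and an interval of -0.22 to 0.23 in HCC44. HERC6, which ends 14005 bases before HERC5 on chromosome 4, fell by 0.93 ± 0.11 in H1975, from 51.2 and 51.6 to 27.8 and 26.1 CPM, and its change in HCC44 was 0.04 with an interval of -0.22 to 0.30. USP18 was at 35.1 and 34.5 CPM with DMSO and at 35.7 and 31.9 CPM with ACBI1 in H1975, and went from 10.8 and 10.0 to 16.7 and 16.2 CPM in HCC44, a rise of 0.66 ± 0.11 (adjusted p = 0.00124). The difference between the lines, 0.70 ± 0.16, had an adjusted p of 0.0126. Of the 50-base words of USP18 exons, 23.4% also occur elsewhere among annotated exons, most in USP41, so its reads can be split with a copy.

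IFI6, IFI27, IFI44, IFI44L and IFI35 were grouped by their name prefix, and all 5 fell in H1975. IFI27, a mitochondrial and nuclear membrane protein, stood at 652 CPM per kb of its principal transcript in H1975 with DMSO, and at 114 CPM per kb with all its exons as the length. It went from 490 and 455 to 73.2 and 61.4 CPM there, a fall of 2.81 ± 0.19, while in HCC44 it had 92 reads over both DMSO libraries and 45 over both ACBI1 libraries, a ratio of 0.492 (exact 95% counting interval 0.336 to 0.71, adjusted p = 0.0711). IFI6, an antiapoptotic mitochondrial protein, went from 285 and 269 to 96.4 and 86.7 CPM in H1975 and from 15.6 and 15.1 to 18.2 and 20.7 CPM in HCC44. Its groups were apart in both lines, and the rise in HCC44, 0.34 ± 0.10 (adjusted p = 0.0225), was the smallest of the 8. IFI35 went from 42.9 and 44.7 to 22.3 and 22.9 CPM in H1975 and from 15.0 and 14.3 to 31.1 and 30.0 CPM in HCC44. Its replicates lay close together in every group, and the changes of -0.95 ± 0.10 and 1.06 ± 0.10 crossed over so that HCC44 was higher with ACBI1 by 0.43 ± 0.10 (adjusted p = 0.003). IFI44L and IFI44 are neighbours on the plus strand of chromosome 1, with 3650 bases between them. IFI44L went from 138 and 138 to 15.9 and 11.6 CPM in H1975 and from 19.3 and 21.8 to 11.5 and 14.003 CPM in HCC44, falling in both. IFI44 went from 93.6 and 84.2 to 38.4 and 33.8 CPM in H1975 and from 11.2 and 11.1 to 15.9 and 21.4 CPM in HCC44, where it rose by 0.74 ± 0.14 (adjusted p = 0.00241). These neighbours thus went opposite ways in HCC44.

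Among the other effectors with no close relative in the set, 7 of 8 fell in H1975. BST2, which tethers budding virus particles to the cell, fell in both lines, from 223 and 259 to 75.5 and 90.1 CPM (-1.54 ± 0.12) and from 11.4 and 9.59 to 4.58 and 5.16 CPM (-1.11 ± 0.14). GBP1, a GTPase known from the response to interferon gamma, was the only 1 of the 40 called higher in HCC44 with DMSO, at 65.3 and 76.9 against 35.9 and 41.2 CPM. It fell in both lines, by 1.41 ± 0.14 in H1975 and by 0.75 ± 0.14 in HCC44. Of its 50-base exon words 9.62% occur in other genes, as do 12.1% of those of TRIM22. ISG20, an exonuclease, was at 24.1 and 15.6 CPM with DMSO and at 27.1 and 21.7 CPM with ACBI1 in H1975, where the groups overlapped, and it went from 12.7 and 15.0 to 23.3 and 35.5 CPM in HCC44, a rise of 1.09 ± 0.25 (adjusted p = 0.00902). DDX60, a helicase, and PLSCR1, a scramblase, fell in H1975 by 1.34 ± 0.18 and 1.21 ± 0.10, and their values in HCC44 were -0.15 and -0.21 with adjusted p-values of 0.571 and 0.146. RSAD2, which makes a chain-ending nucleotide, and CMPK2, which feeds it, overlap at their ends on chromosome 2. RSAD2 went from 17.5 and 15.3 to 3.14 and 1.97 CPM and CMPK2 from 13.9 and 12.6 to 5.43 and 4.55 CPM in H1975. In HCC44 their group totals were 11 and 7 reads and 24 and 27 reads with DMSO and ACBI1, which for RSAD2 is a ratio of 0.64 (counting interval 0.21 to 1.81). TRIM22, with 27 and 6 reads in HCC44, had a ratio of 0.223 (counting interval 0.0754 to 0.552, adjusted p = 0.055). It was called in 5 alternatives.

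EPSTI1, XAF1, LGALS3BP and SP110 fell in both lines. XAF1, a proapoptotic partner of XIAP, went from 147 and 153 to 10.0 and 7.96 CPM in H1975 and from 4.90 and 5.77 to 0.784 and 1.04 CPM in HCC44, falls of 4.06 ± 0.15 and 2.55 ± 0.18. It stood beside MX2 as one of the 2 deepest falls in each line among the called members. Of its exon bases, 38.3% lie opposite the annotated gene PRAL, and the counting strand is not given, so reads of the 2 cannot be told apart. LGALS3BP, a secreted glycoprotein, had the highest level per transcript length of the 40 genes in HCC44 with DMSO, 211 CPM per kb, and 35.7% of their summed CPM. It went from 580.5 and 643 to 183 and 177 CPM in H1975 and from 492 and 522 to 338 and 361 CPM in HCC44. EPSTI1 fell by 2.27 ± 0.26 and 1.59 ± 0.28, and SP110, a nuclear body protein, by 1.12 ± 0.11 and 0.90 ± 0.11. The differences between the lines for EPSTI1 and SP110 were not called. SP110 shares 20.9% of its exon bases with genes on the opposite strand.

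The lines stood far apart in their DMSO libraries. With DMSO, 35 of the 40 genes were lower in HCC44 and 1 was higher, where 36.4% of all tested genes were called lower and 31.6% higher, 67.9% together. The median difference over the 40 genes was -2.43 on the log2 scale. PARP14, SAMD9L, IRF1 and ISG20 were not called. With ACBI1, 28 were lower in HCC44 and 6 higher, beside 35.1% and 31.9% of all tested genes (67% in either direction), and the median difference was -0.999. The 35 and the 28 include RSAD2 and TRIM22, which passed the filter only through H1975. For these genes a lower level in HCC44 was set by the filter and is no finding, and they also enter both medians. By value the difference moved up for all but 1 gene (HERC5). This move is the interaction value given above in another form, and over all tested genes 47.8% had a negative value. The size of the difference shrank for 34 of the 40, and the share of all tested genes for which it shrank was not counted. The 6 genes higher in HCC44 with ACBI1 were PARP14, SAMD9L, IRF1, IFI35, GBP1 and LGALS3BP. IFI35 lost that call with library totals in place of scaling factors.

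**Figure D3:**
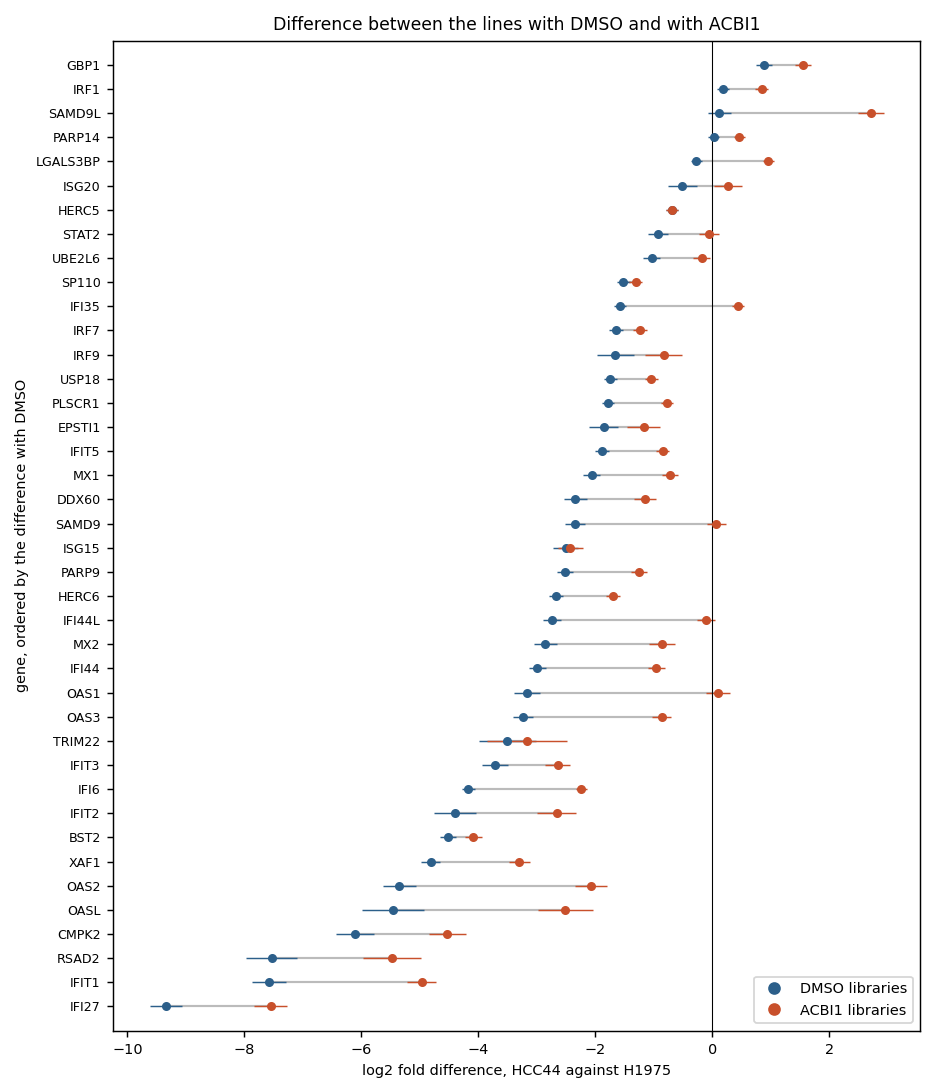
Log2 fold difference of HCC44 against H1975 for each of the 40 genes, in the DMSO libraries (blue) and in the ACBI1 libraries (orange), with standard errors as bars. Genes are ordered by the difference with DMSO, from IFI27 at the bottom to GBP1 at the top. With DMSO 36 values lie below 0, and with ACBI1 31 do.

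The level with DMSO and the change with ACBI1 were then set side by side. Per kb of the principal transcript, the median level of the 40 genes was 24.6 CPM in H1975 with DMSO, 10.7 CPM with ACBI1, 4.76 CPM in HCC44 with DMSO and 5.11 CPM with ACBI1. With the length of all exons in place of the principal transcript, the HCC44 medians were 3.71 and 2.96 CPM, so their order depended on that choice. In H1975, the 13 genes of the highest levels with DMSO, from 41.4 to 652 CPM per kb, stood at a median of 33.4% of them with ACBI1. The middle 14 stood at 33.5% and the lowest 13 at 37.7%. In HCC44 the medians were 64.7%, 99.5% and 76.6%. With the level taken from 1 DMSO library and the change from the other, Spearman's rho over the 40 genes was -0.034 and 0.046 in H1975 and -0.121 and -0.022 in HCC44, as a description of genes that share the same libraries and depth. The 5 genes that were not called lower in HCC44 with DMSO (PARP14, SAMD9L, IRF1, ISG20 and GBP1) were set beside these values. Of these, 4, all but ISG20, fell more in H1975, with differences of 0.44 to 2.59. By value ISG20 was lower in HCC44 with DMSO, at a log2 difference of -0.515, and it was called lower with library totals and by DESeq2. The difference for SAMD9L held in every alternative, and those for PARP14, IRF1 and GBP1 did not.

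**Figure D4:**
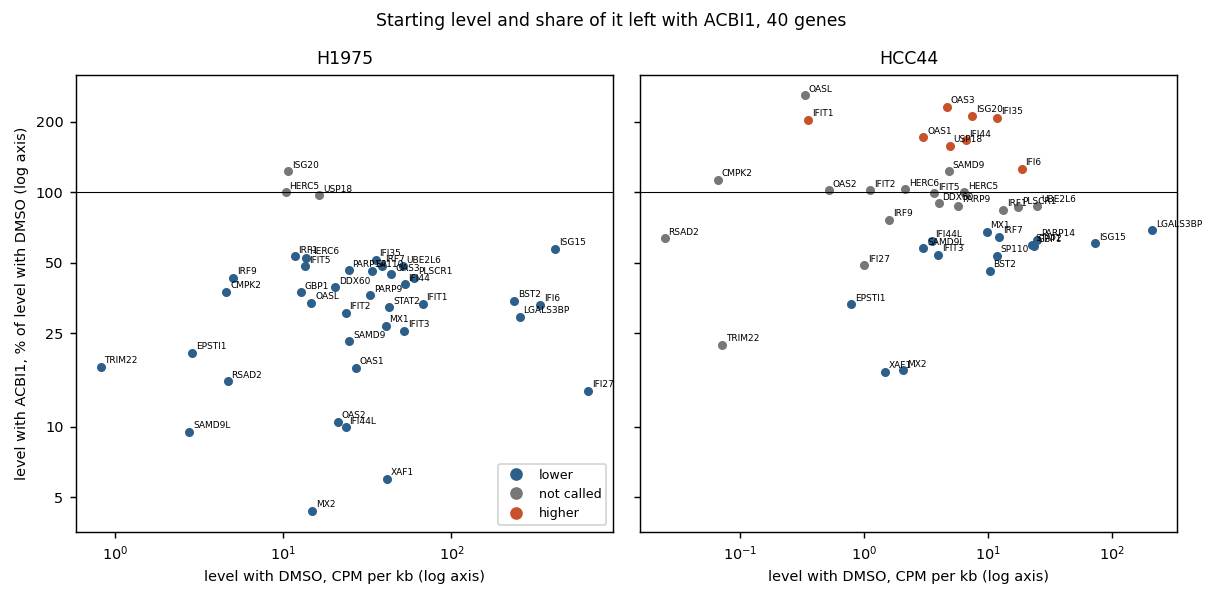
Level with DMSO in CPM per kb of transcript (horizontal log axis) and the level with ACBI1 as a percentage of it (vertical log axis) for the 40 genes, with 1 panel per line and colour for the call. The line at 100 marks no change. In H1975 genes at similar levels with DMSO, such as MX2 and USP18, stood at 4.37% and 97.4% of them with ACBI1.

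Replicates of the ACBI1 groups were not centred alike for these genes. In H1975, replicate 2 was lower than replicate 1 for 35 of the 40, with a median log2 difference of -0.27, beside 0.02 over all tested genes. In HCC44, replicate 2 was higher for 27 of the 40, with a median of 0.25 beside 0.00. Leaving out ACBI1 replicate 2 put the members' median change in HCC44 at -0.48, and leaving out replicate 1 put it at -0.18. In H1975 the median stayed between -1.53 and -1.34 when any library was left out. Both ACBI1 libraries lay below both DMSO libraries for 37 genes in H1975 and above for 0, beside 34.2% and 33.1% of all tested genes. In HCC44 they lay below for 20, above for 10 and overlapped for 10, beside 32.7% of all tested genes below and 34.1% above, so the count above was not over the share of all genes.

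The genes that feed the pathway were read beside the 40. IFNB1, which encodes interferon beta, was scarce. It had 11 reads over both DMSO libraries of H1975 and none with ACBI1, a ratio with a counting interval of 0 to 0.36. With that group set to 3 reads the fall would be 4.05-fold. In HCC44 it had 69 and 4 reads, a ratio of 0.0583 (counting interval 0.0154 to 0.156). IFNE, the other interferon tested, fell in H1975, with 58 reads over both DMSO libraries and 18 with ACBI1. In HCC44 it went the other way by value, from 29 to 70 reads, and was not called. That is a ratio of 2.43 (counting interval 1.55 to 3.88). IFNK and IFNG had no read in any library, and IFNL1, IFNL2 and IFNL3 had too few to test. Of 9 receptor chains and kinases, IFNGR1 and JAK1 fell in H1975, while in HCC44 IFNGR1 fell and IFNAR2, IFNGR2, IFNLR1 and IL10RB rose. IFNAR2 went from 8.11 and 10.0 to 20.8 and 22.1 CPM in HCC44, a rise of 1.24 ± 0.15. Of 5 STAT genes read beside the set, STAT3 and STAT6 fell and STAT5B rose in H1975, and STAT4 fell in HCC44. Of 6 other IRF genes, IRF2 fell in H1975.

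Of 10 genes that sense foreign nucleic acid or relay that signal, 8 fell in H1975 and 5 in HCC44. Beside this list and the others here, 16.7% of all tested genes fell and 14.6% rose in H1975, and 17.4% fell and 17.5% rose in HCC44. IFI16, a DNA sensor, fell by close amounts in the lines, by 1.78 ± 0.10 and 1.79 ± 0.10. STING1, the adaptor of the cGAS pathway, went from 43.5 and 39.4 to 17.5 and 14.1 CPM in H1975 and from 8.20 and 8.34 to 4.85 and 5.57 CPM in HCC44, falls of 1.39 ± 0.14 and 0.67 ± 0.15. RIGI, an RNA sensor, fell by 1.15 ± 0.35 in H1975 and had a value of 0.54 in HCC44 with an interval of -0.51 to 1.60. Of 5 genes that damp the pathway, PIAS1 fell in both lines and SOCS1 fell in HCC44. A list of 40 further interferon-stimulated genes had 38 tested members. It was chosen from general knowledge but with earlier results of these data known, so it is not independent of them. Of these, 27 fell and 1 (GBP4) rose in H1975 with a median of -0.85, and 19 fell and 2 (TRIM14 and TRIM69) rose in HCC44 with a median of -0.38. Among 14 tested relatives of the members from outside the interferon response, such as HERC2, PARP1 and UBE2L3, 5 fell in H1975 and 7 in HCC44, and the medians were -0.25 and -0.29. In HCC44 the share of the 38 further genes that fell was not above that of these relatives, 50%.

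**Figure D5:**
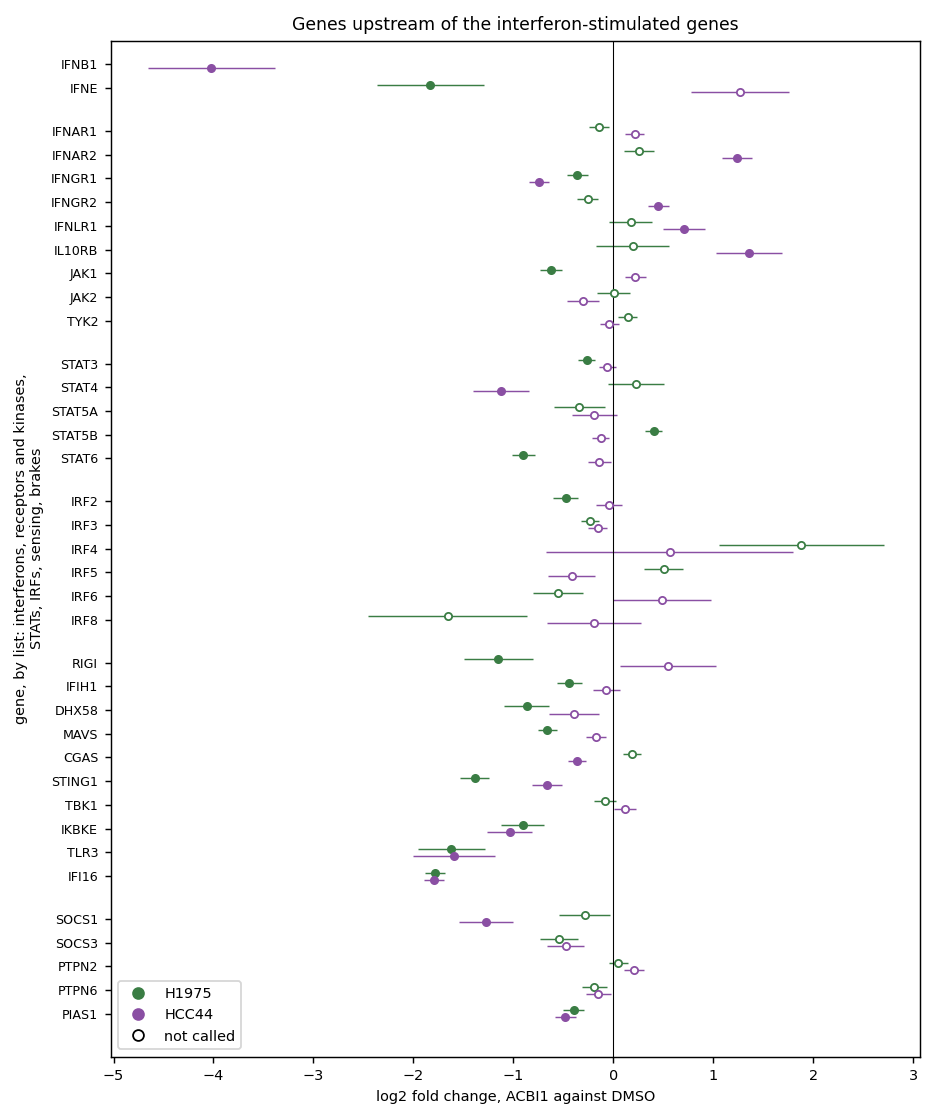
Log2 fold change with ACBI1 in H1975 (green) and HCC44 (purple), with standard errors as bars, for tested interferons, receptors and kinases, 5 STAT and 6 IRF genes outside the 40, sensing genes and genes that damp the pathway. Filled points were called. IFNB1 in H1975 is left out because its ACBI1 group had no read. In H1975 most receptors and kinases lie nearer to 0 than most sensing genes do.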

How the data were processed

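RNA was measured in 8 libraries, 2 in each of 4 groups set by line and treatment. The authors deposited 1 file per library with raw read counts for each gene. TopHat2 2.1.1, HTSeq 0.11.0 and the build hg38 are named per the submitters' processing notes. The annotation release and the strand setting are not given in the sources used here. Summary rows, 14.3 to 15.8% of a file's total, were left out.

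Counts of 21307 genes kept by filterByExpr were fitted with edgeR 4.0.16 in R 4.3.3 with TMM factors. A model with a mean per group over all 8 libraries left 4 residual degrees of freedom, and the two-sided robust quasi-likelihood F-test was used. The standard error is the log2 fold change over the square root of F. Shared dispersion over genes gave a coefficient of variation of 0.123. CPM used scaled library sizes. Level per length used the GENCODE 29 principal transcript. Replicates differed by more than sampling noise (chi-square per degree of freedom 21 to 44). Read-count intervals are exact 95% ones and cover counting error only. The procedure was tested on simulated counts.

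All 40 members were to be named, as were genes of lists written beside them. A gene of these lists is not reported here. Members and lists were chosen with earlier results of these data known. Alternatives were DESeq2 1.42.0, other scaling, filters, dispersion, threshold, blocks, groups fitted alone and each library left out. The length from all exons was added after seeing the data. Figures were drawn with matplotlib.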

Additional observations from a re-analysis of the deposited data

Results flagged for a closer look

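The change with ACBI1 differed between the lines for 29 of the 40 genes by the interaction test in edgeR (adjusted p under 0.05), and each value below is the log2 change in HCC44 minus that in H1975. The 6 genes that fell in H1975 and rose in HCC44 had differences of OAS1 3.27, IFIT1 2.61, OAS3 2.37, IFI44 2.04, IFI35 2.01 and IFI6 1.93. Among the genes that fell in both lines and fell further in H1975, the differences were IFI44L 2.64, SAMD9L 2.59, MX2 2, XAF1 1.51, MX1 1.34, LGALS3BP 1.23, IFIT3 1.08, STAT2 0.88, GBP1 0.66 and PARP14 0.44. Among those that fell in H1975 and were not called in HCC44, the differences were OAS2 3.28, OASL 2.95, SAMD9 2.41, IFI27 1.79, IFIT2 1.74, PARP9 1.26, DDX60 1.19, IFIT5 1.04, PLSCR1 1, HERC6 0.97, UBE2L6 0.86 and IRF1 0.66. USP18, with a difference of 0.70, rose in HCC44 and was not called in H1975. The ACBI1 libraries also differed from the DMSO libraries in the sum of epithelial markers, in opposite directions in the 2 lines. In HCC44 the higher sum was mostly KRT7, and by value 4 of the 8 tested markers were lower there. The part of this sum in the differences between the lines was not tested.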

How the results depend on the processing

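No called value of the 40 genes changed sign under any alternative run. In H1975 the count of genes that fell was 33 to 35 when 1 library was left out, and the median change ran from -1.53 to -1.34. In HCC44 the median ran from -0.479 to -0.18 and the count that rose from 4 to 8. The median difference between the lines with DMSO ran from -2.444 to -2.354. With library totals in place of scaling factors the median of all genes moved by 0.194 in H1975 and by -0.228 between the lines with ACBI1, and the members' medians were -1.294 in H1975, -0.136 in HCC44, -2.546 between the lines with DMSO and -1.228 with ACBI1. With upper-quartile factors they were -0.175 in HCC44 and -2.501 between the lines with DMSO. At a threshold of 0.01, 5 genes rose in HCC44 and 18 differences between the lines were called. With all exons as length, the median levels per kb were 16.4, 6.12, 3.71 and 2.96 CPM in H1975 DMSO, H1975 ACBI1, HCC44 DMSO and HCC44 ACBI1, which moved the HCC44 medians into the other order.

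Replicate numbers are shared between groups, but 2 pairs per line do not show that they pair the samples. With the replicate block within each line, 1 gene (ISG20) rose in H1975 where none did without it. In HCC44, 4 more members were called, OASL and SAMD9 higher and IRF1 and TRIM22 lower, and 5 more differences of the change between the lines were called (ISG20, CMPK2, IRF9, IRF7 and BST2). The correlation of same-numbered libraries' deviations was 0.374 in H1975 and 0.109 in HCC44 over all genes, and 0.464 and 0.228 over the members.

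Depth limits RSAD2, CMPK2, TRIM22 and IFI27 in HCC44, with 6 to 92 reads in a group. Values near 0 in HCC44 have no stable sign: 8 genes not called there changed sign in 18 of 558 values. With 2 libraries a group, the spread is borrowed from all 4 groups.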
